A study of Mus musculus with 4 samples.

Results

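The 31 genes described here encode the digestive enzymes and other granule proteins that acinar cells of the exocrine pancreas secrete, together with 3 transcription factors of those cells. They were taken by name from a list of acinar genes, and all 31 were found among the 43629 genes counted. They comprise 6 trypsinogens, 4 elastases, 3 chymotrypsinogens, 2 carboxypeptidases, 2 amylases, 5 lipases and lipase cofactors, 6 other secreted or granule proteins, and the factors Ptf1a, Rbpjl and Bhlha15. RNA was sequenced from pancreatic islets of C57BL/6 mice, the clusters of hormone-secreting endocrine cells, with 1 library in each of 4 groups. The first library came from islets of genotype control. The second came from islets of genotype Rip2;IMP2, described by its submitters as an islet-specific knockout of IMP2, an RNA-binding protein encoded by Igf2bp2. The third held RNA recovered from WT islets by RNA immunoprecipitation (RIP) of IMP2, and the fourth was a WT library with the label IgG, commonly a control antibody in RIP. Rip2 commonly denotes a rat insulin promoter, which acts in beta cells and is not known for activity in acinar cells, so IMP2 of acinar cells may be intact in the Rip2;IMP2 islets. The age and number of the mice, and whether islets were pooled, are not given in the sources used here.

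Acinar cells make up most of the pancreas and surround the islets, which are freed from them by enzymatic digestion and picking, so islet RNA usually carries some acinar RNA. These cells store inactive enzyme precursors in zymogen granules and release them into the duct after a meal. Trypsin, formed from trypsinogen in the intestine, activates the other protease precursors. Transcription of the enzyme genes is driven by PTF1, a complex of Ptf1a, a partner E protein such as Tcf3 or Tcf12, and Rbpjl. Bhlha15, also known as Mist1, is a basic helix-loop-helix factor that scales up the secretory machinery, and it is also made in other secretory cells, among them plasma cells.

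PTF1 recognises an E-box, CANNTG, next to a TC-box, TTTCCC. These letters were searched in the 250 bases before each gene's start, on both strands, in promoters from RefSeq (GRCm38.p6), where 26 of the 31 genes were matched by symbol. The promoters of Ctrb1, the most abundant enzyme RNA here, and of Cela1 are shown because each holds the motifs 10 bases apart. That of Bhlha15 is shown because its RNA was 2.35-fold higher in the Rip2;IMP2 islets than in control islets. The 28 enzyme and granule genes in sum had a ratio of 1.01 in that comparison. Capitals mark the E-boxes and the TC-box, and each sequence runs 5′ to 3′ on the gene's own strand.
Ctrb1 promoter (chr8:111691011-111691260, minus strand): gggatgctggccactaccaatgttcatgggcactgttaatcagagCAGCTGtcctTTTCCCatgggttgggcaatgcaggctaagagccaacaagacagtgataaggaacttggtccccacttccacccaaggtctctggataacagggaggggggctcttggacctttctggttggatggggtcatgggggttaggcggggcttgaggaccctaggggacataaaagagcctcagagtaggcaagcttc
Cela1 promoter (chr15:100687921-100688170, minus strand): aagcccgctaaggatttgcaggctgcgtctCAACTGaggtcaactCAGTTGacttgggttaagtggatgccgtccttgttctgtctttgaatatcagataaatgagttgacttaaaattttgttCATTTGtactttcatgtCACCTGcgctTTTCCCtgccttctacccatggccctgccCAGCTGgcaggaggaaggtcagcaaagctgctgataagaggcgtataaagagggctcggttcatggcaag
Bhlha15 promoter (chr5:144190036-144190285, plus strand): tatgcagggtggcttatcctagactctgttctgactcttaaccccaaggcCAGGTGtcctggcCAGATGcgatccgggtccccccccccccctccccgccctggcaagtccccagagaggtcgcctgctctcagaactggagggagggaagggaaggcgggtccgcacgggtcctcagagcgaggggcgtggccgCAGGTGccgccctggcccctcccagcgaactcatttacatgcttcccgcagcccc
The Ctrb1 promoter held 1 E-box and 1 TC-box, and that of Cela1 held 5 E-boxes and 1 TC-box. The Bhlha15 promoter held 3 E-boxes and 0 TC-boxes. Of the 26 promoters matched, 22 held an E-box (84.6%) and 8 held a TC-box on either strand (30.8%), against 66.2% and 21.9% of all 32851 promoters of the table. An E-box and a TC-box that started within 30 bases of each other were present in 5 of the 26 (Cel, Cela1, Cpa1, Ctrb1 and Prss1), or 19.2%, against 4.76% of all promoters. These are letter matches, not measured binding, and no group difference described here was tested against them.

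The trypsinogen genes lie together on chromosome 6 (mm10, positions 41030268 to 41525079), and their RNAs are so alike that reads can be lost or shared between them. The first 75 coding bases of each, from GENCODE M21 transcripts, are printed to show this, with capitals where a base differs from Prss2 at the same position.
Prss2: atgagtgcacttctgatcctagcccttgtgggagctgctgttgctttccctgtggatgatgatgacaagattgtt
Prss1: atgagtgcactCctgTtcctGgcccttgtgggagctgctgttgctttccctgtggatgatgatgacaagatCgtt
Prss3: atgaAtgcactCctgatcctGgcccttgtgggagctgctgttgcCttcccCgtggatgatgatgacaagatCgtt
Try4: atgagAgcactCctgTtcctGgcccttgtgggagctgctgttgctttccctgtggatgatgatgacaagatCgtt
Try5: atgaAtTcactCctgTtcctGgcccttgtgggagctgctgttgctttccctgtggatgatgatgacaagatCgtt
2210010C04Rik: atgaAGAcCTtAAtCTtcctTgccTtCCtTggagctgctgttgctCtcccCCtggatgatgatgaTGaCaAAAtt
Prss1 differed from Prss2 at 4 of the 75 bases, Try4 at 5, Prss3 and Try5 at 6, and 2210010C04Rik at 23. Of all 50-base stretches in the transcripts, 66.1% in Prss3, 65.6% in Try4, 54.9% in Prss1 and 47.6% in Try5 also occurred in transcripts of another gene, against 7.83% in Prss2 and 0 in 2210010C04Rik. Amy2a5 (53.5%), Amy2b (40.2%), Ptf1a (35.4%), Cela3a (34.2%), Klk1 (24.0%), Cela3b (19.2%), Ctrc (17.7%) and Cela2a (15.6%) also shared stretches. Their counts, like those of the trypsinogens, are uncertain. Ctrc and Cela2a overlap on the same strand, and both overlap Casp9 on the other, so their reads may not be separable either. The same limit holds for Cuzd1, which overlaps Fgfr2 on the same strand. Zg16, Sycn and Rbpjl overlap other genes on the opposite strand, which matters if strand was not used in counting.

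Gene counts totalled 26350813, 24275628, 6025594 and 13195732 for the control, labelled knockout, RIP and IgG libraries, the order of every list of 4 values below. Igf2bp2 had 255, 222, 186 and 458 counts, with a labelled knockout to control ratio of 0.978 (95% interval 0.813 to 1.17). The targeted gene thus did not differ beyond counting error, a whole-gene count does not check the loss of single exons, and the library is called the labelled knockout throughout. A set of 9 endocrine genes (hormones and granins) made up 34.5%, 37.9%, 26.6% and 0.113% of gene counts. The IgG library was rich in brown fat markers, with 23745 CPM (each count divided by the library's gene counts and rescaled) for 8 genes, against 42.2, 31.5 and 1559 CPM in the others. No group has a replicate, so there is no p-value and no test of a condition. Each ratio compares 2 libraries, and its 95% interval and any limit given for 0 counts cover counting error only.

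The acinar genes were a trace component of both islet libraries. The 28 enzyme and granule genes, without the transcription factors, summed to 14239, 12800, 2071 and 30 counts. This is 540.4, 527.3, 343.7 and 2.27 CPM, or 0.0540%, 0.0527%, 0.0344% and 0.000227% of gene counts. Control islets and the labelled knockout each detected 29 of the 31 genes, the RIP 22 and the IgG library 14. In these bulk samples, fewer acinar cells and less RNA per acinar cell cannot be told apart.

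**Figure D1:**
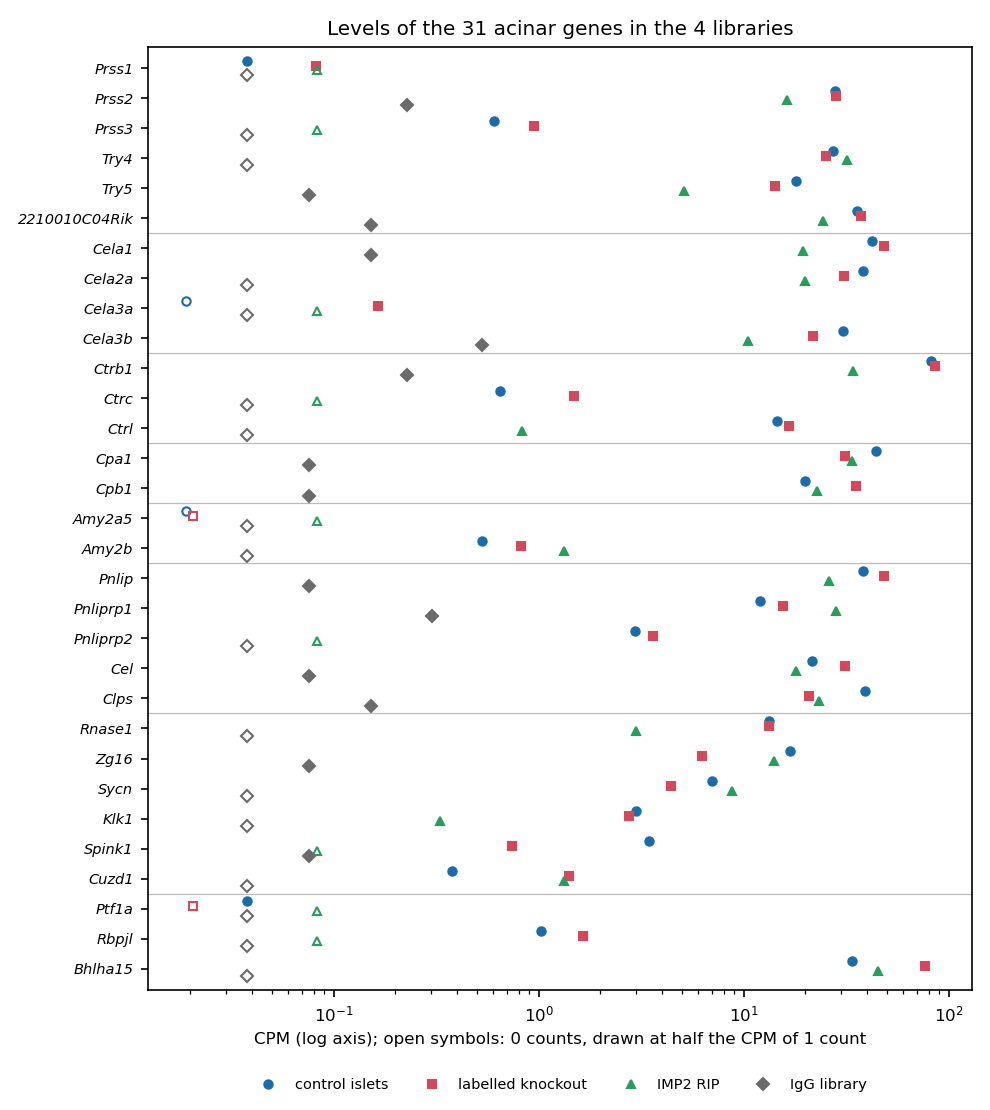
Level of each of the 31 acinar genes in the 4 libraries, as CPM on a log axis, with gene roles separated by grey lines. Open symbols are genes with 0 counts, drawn at 0.5 times the CPM of 1 count. The control and labelled knockout symbols lie close together for most genes, and the IgG symbols lie at or under 0.530 CPM.

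Levels per kilobase divide by all exons of all annotated transcripts of a gene, so exons not used here lower its value. Per kilobase of exon, Ctrb1, a chymotrypsinogen (chromosome 8, 111686519 to 111691010, minus strand), had the highest level of the 31 in both islet libraries, at 93.5 and 97.3 CPM per kb. Clps, the colipase that anchors pancreatic lipase to fat droplets, was next in control islets at 63.7 CPM per kb but ranked 3 in the labelled knockout at 34.0. The trypsinogens Try4 and Prss2 followed in control islets, both at 34.2 CPM per kb. On this scale Bhlha15 ranked 17 in control islets (9.66 CPM per kb) and 6 in the labelled knockout (21.9). At the other end, Amy2a5, a pancreatic amylase gene, had 0 counts in all 4 libraries, where 3 counts would be 0.114, 0.124, 0.498 and 0.227 CPM. Amy2b had 14, 20, 8 and 0 counts. Amylase RNA is abundant in acinar cells, so these counts stand apart from those of the other enzymes. Both amylase genes share much sequence with others, and the part of lost reads in their counts was not tested.

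The comparison of labelled knockout with control islets sets islets of genotype Rip2;IMP2 beside control islets, without a check that the former lack IMP2. A gene was measured when its mean over both libraries was at least 1 CPM, and called when its ratio was 1.5-fold or more with an interval that excluded 1. Of the 31 genes 24 were measured, with 4 called higher and 4 lower. Over all 15735 measured genes 6.11% were called higher and 15.4% lower (21.5% either way). Bhlha15, Ctrc, Cpb1 and Cel were higher, and Spink1, Zg16, Clps and Sycn were lower. The median log2 ratio of the 24 was 0.09, beside 0.00 over all measured genes, and the summed level of the 28 enzyme and granule genes had a ratio of 1.01 (0.985 to 1.03). The enzyme sum thus differed little between these 2 libraries while single members were called in opposite directions.

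Among the transcription factors, Bhlha15 (ENSMUSG00000052271) stood at 889, 1857, 273 and 0 counts, or 33.7, 76.5, 45.3 and 0 CPM. The labelled knockout held more than the control and the RIP lay between them. Bhlha15 was 2.35-fold higher in the labelled knockout (2.16 to 2.54). Rbpjl, the acinar subunit of PTF1, had 27, 40, 0 and 0 counts and a ratio of 1.66 (0.996 to 2.82), an interval that holds 1. Ptf1a, the subunit that binds the E-box, had 1, 0, 0 and 0 counts and was not measured. Of the 3 factors, Bhlha15 thus held nearly all counts in each islet library.

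All 6 trypsinogens, the precursors of the main pancreatic protease, were detected in both islet libraries, and 4 were measured, with 0 called. 2210010C04Rik, a trypsinogen gene whose sequence stands apart from the others, had 941, 911, 147 and 2 counts, with a ratio of 1.09 (0.991 to 1.19). Prss2 had 734, 689, 98 and 3 counts (ratio 1.05, 0.949 to 1.17), and Try4 had 722, 611, 193 and 0 (interval of the ratio 0.852 to 1.06). The intervals of these 3 all held 1. Try5 had 476, 345, 31 and 1 counts and a ratio of 0.814 (0.706 to 0.937), within the 1.5-fold limit. Prss3, with 16, 23, 0 and 0 counts, and Prss1, with 1, 2, 0 and 0, were not measured. The 6 together had a ratio of 1.003 (0.951 to 1.06).

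The elastases and chymotrypsinogens, serine proteases that cut at other residues, stayed mostly within the limit. Ctrb1 had 2164, 2073, 206 and 3 counts, with a ratio of 1.08 (1.01 to 1.14). It made up 15.2% (14.6 to 15.8), 16.2% (15.6 to 16.8) and 9.95% (8.69 to 11.3) of the 28-gene sum in the first 3 libraries. Cela1 had 1113, 1172, 117 and 2 counts (ratio 1.18, 1.09 to 1.28), and Ctrl, a chymotrypsin-like protease, had 384, 405, 5 and 0 (1.18, 1.03 to 1.37). Cela2a had 1008, 747, 120 and 0 counts and Cela3b 803, 530, 63 and 7, with ratios of 0.832 (0.756 to 0.916) and 0.741 (0.663 to 0.828). Of these 5, 3 had ratios above 1 and 2 below. Ctrc, known for degrading trypsinogen, was called higher at 2.38-fold (1.30 to 4.51), on only 17 and 36 counts in the islet libraries and 0 in the others. Cela3a had 0, 4, 0 and 0 counts and was not measured.

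The 2 carboxypeptidases, which trim residues from the ends of peptides, moved apart. Cpa1 (chromosome 6, 30639218 to 30645363, plus strand), which encodes carboxypeptidase A1, had 1164, 755, 203 and 1 counts and a ratio of 0.728 (0.664 to 0.799), within the limit. Cpb1 (chromosome 3, 20248264 to 20275733, minus strand), which encodes carboxypeptidase B1, had 527, 861, 137 and 1 counts and was called higher at 1.83-fold (1.64 to 2.05). Per kilobase of exon, Cpa1 stood above Cpb1 in both islet libraries, at 25.2 against 6.09 CPM per kb in the control and 17.8 against 10.8 in the labelled knockout. The lengths, over all annotated exons, were 1750 bases for Cpa1 and 3284 for Cpb1. In the labelled knockout Cpb1 had the higher CPM, at 35.5 against 31.1, so the order there rests on these lengths. The 2 carboxypeptidases in sum had a ratio of 1.07 (1.002 to 1.15).

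Lipid-digesting genes divided in the same way. Cel, the bile salt-dependent carboxyl ester lipase, had 567, 761, 108 and 1 counts and was called higher at 1.51-fold (1.35 to 1.68), just past the limit. It was not called under library totals (1.46), DESeq2 size factors (1.48) or an assumed coefficient of variation of 0.2 per library. Pnlip, the main pancreatic lipase, had 1013, 1179, 157 and 1 counts (ratio 1.31, 1.20 to 1.42). Its relatives Pnliprp1 (316, 379, 171 and 4 counts) and Pnliprp2 (78, 88, 0 and 0) had ratios of 1.35 (1.16 to 1.57) and 1.27 (0.923 to 1.74). All 4 lipases had ratios above 1, and 1 was called. Clps (chromosome 17, 28558149 to 28560766, minus strand) went the other way, with 1025, 505, 141 and 2 counts, 1.81-fold lower in the labelled knockout (ratio 0.553, 0.496 to 0.616). Per kilobase of exon, Clps stood above Pnlip, the lipase whose cofactor it encodes, in both islet libraries, at 63.7 against 17.5 CPM per kb in the control and 34.0 against 22.1 in the labelled knockout.

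Of the 6 other secreted and granule proteins 5 were measured, with 3 called lower. Spink1, the trypsin inhibitor of the pancreas, had 91, 18, 0 and 1 counts, 4.50-fold lower in the labelled knockout (ratio 0.222, 0.126 to 0.371). Zg16 (chromosome 7, 127050156 to 127087328, minus strand), a lectin-like protein of the zymogen granule membrane, had 442, 153, 85 and 1 counts, 2.57-fold lower (ratio 0.389, 0.321 to 0.468). Sycn, syncollin, another protein of that membrane, had 184, 108, 53 and 0 counts, 1.52-fold lower (ratio 0.659, 0.515 to 0.840). Sycn was not called under totals without members and hormone genes (0.673) or with an assumed coefficient of variation of 0.2 per library. The ribonuclease Rnase1, with 350, 324, 18 and 0 counts, had a ratio of 1.04 (0.891 to 1.21), and Klk1, tissue kallikrein, with 79, 67, 2 and 0, had 0.952 (0.677 to 1.34). Both intervals held 1. Cuzd1, a granule membrane protein, rested on 10, 34, 8 and 0 counts and was not measured (3.82, 1.84 to 8.66).

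Zg16 and Spink1 are also made in the intestine, and markers of intestinal cells moved in the same direction. Of 12 goblet cell and enterocyte markers, all 12 were detected in the control and 7 in the labelled knockout, with sums of 154.0 and 101.1 CPM. Of the 9 measured, 8 were called lower and 0 higher. Fcgbp, a goblet cell mucus protein, had 382 control and 22 labelled knockout counts, and Fabp2, the enterocyte fatty acid carrier, had 192 and 0. Vil1, a microvillus protein and the most abundant of the 12, had 2507 and 2401. The part of these cells in the levels of Zg16 and Spink1 was not tested. Without both genes 2 members were called lower, Clps and Sycn.

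**Figure D2:**
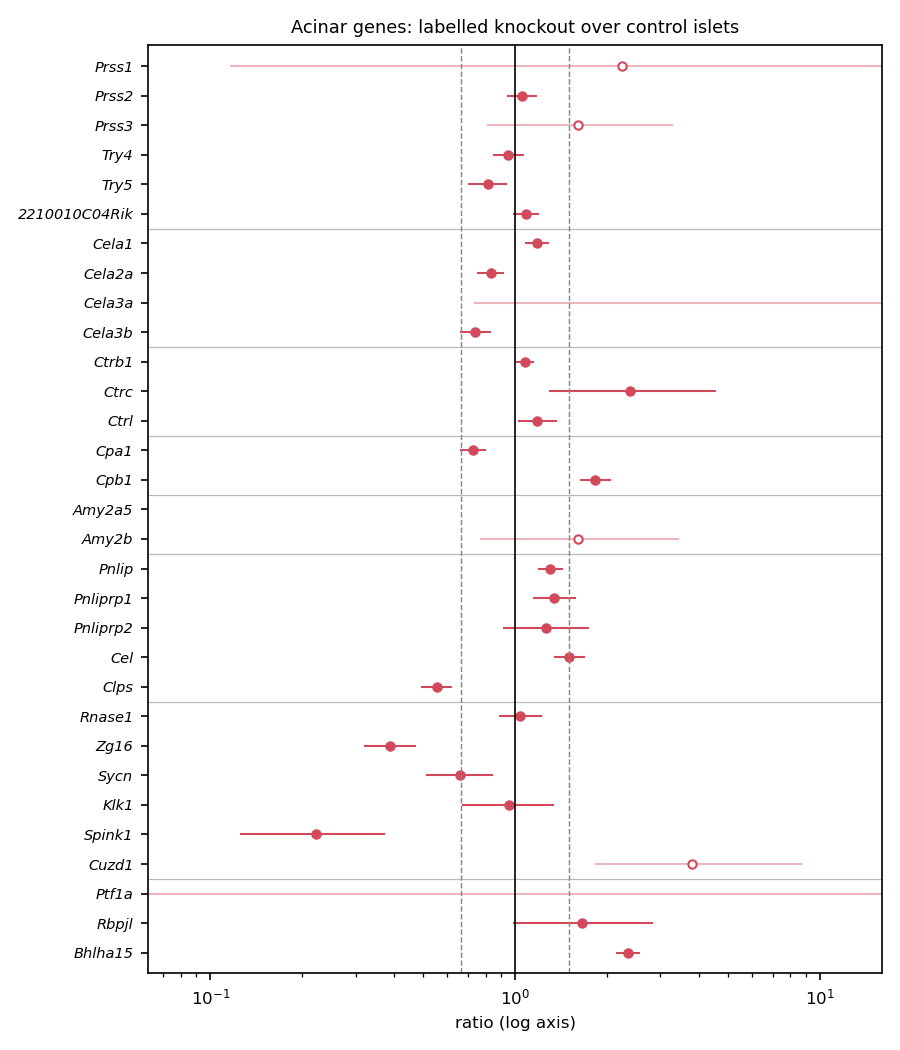
Ratio of labelled knockout over control islets for each acinar gene, on a log axis, with 95% counting intervals cut at the plot's edge. Filled points are measured genes, open points are genes under a mean of 1 CPM, dashed lines mark 1.5-fold, and no point is drawn where a library had 0 counts. Bhlha15, Ctrc, Cpb1 and Cel lie past the upper line, and Spink1, Zg16, Clps and Sycn past the lower.

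The members' shares of the enzyme sum were also compared between the 2 islet libraries. For the 18 enzyme and granule genes with at least 100 counts in control islets, the ratio of each was taken relative to the sum of the other 27. The interval excluded 1 for 14 of the 18 in the labelled knockout over control, with 10 relative ratios above 1 and 8 below, and 13 within 1.5-fold. They ranged from 0.378 (0.312 to 0.455) for Zg16 to 1.88 (1.68 to 2.10) for Cpb1. These intervals hold counting error of reads alone, and the spread between islet preparations of 1 genotype was not measured. At these depths small differences exclude 1, as for Ctrb1 at 1.08 (1.01 to 1.15). The share of all genes with such an interval was not computed, so the 14 of 18 cannot be set beside a background.

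Other cell types were set beside the acinar genes by dividing counts by those of the 9 endocrine genes, a measure chosen after the values were seen. The 28 enzyme and granule genes stood at 157 (154 to 159), 139 (137 to 142), 129 (124 to 135) and 202 (136 to 288) counts per 100000 endocrine counts. Bhlha15 stood at 9.78 (9.15 to 10.4), 20.2 (19.3 to 21.1) and 17.0 (15.1 to 19.2), and its 0 counts in the IgG library allow up to 20.2. In the labelled knockout the enzyme sum was thus lower than in the control on this scale and Bhlha15 was higher. The IgG value rests on 30 counts, few beside the estimated 21 reads per molecule of that library, and is no measure of its acinar RNA. Duct markers stood at 102, 100, 97.7 and 1600, and the 6 lymphocyte markers at 266, 43.0, 50.1 and 121. The IgG values divide by only 14871 endocrine counts. In CPM the duct markers stood at 351 in the control and 18.0 in the IgG library, and the lymphocyte markers at 918 and 1.36. All 6 lymphocyte genes were called lower in the labelled knockout, among them Ptprc, a surface phosphatase of blood cells, with 8731 and 1272 counts. Bhlha15 therefore moved against the lymphocyte markers, and the cell type that holds its RNA was not tested. Gcg, the glucagon gene, was the only endocrine gene of the 9 called, at 1.81-fold higher.

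**Figure D3:**
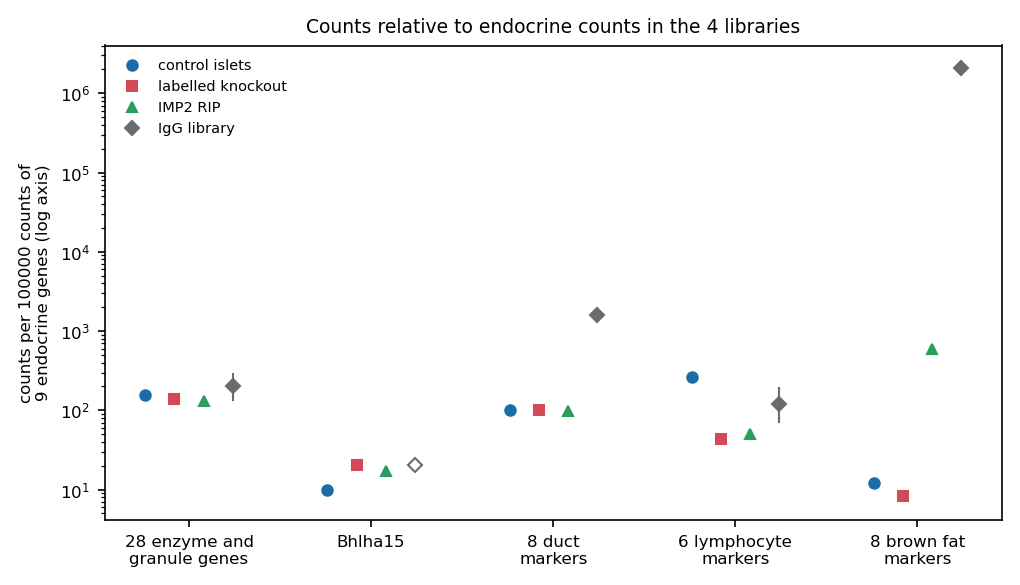
Counts of 5 gene sets per 100000 counts of 9 endocrine genes in each library, on a log axis, with 95% counting intervals as vertical lines. The open symbol marks 0 counts of Bhlha15 in the IgG library, drawn at the value of 3 counts, which is not an interval limit. The 28 enzyme and granule genes lie between 129 and 157 in the first 3 libraries, the IgG value of 202 rests on 30 counts, and brown fat markers span the largest range. All IgG values divide by only 14871 endocrine counts.

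Genes outside the 31 gave a mixed picture in the same comparison. Of 14 further acinar genes 8 were measured, with 4 called higher and 1 lower. Gp2, the main glycoprotein of the granule membrane, had 35, 59, 54 and 0 (1.89-fold higher, 1.23 to 2.96). Reg2 was called 1.73-fold higher (1.38 to 2.18) and Reg1, of the same family of regenerating proteins, 2.01-fold lower (ratio 0.498, 0.432 to 0.571). Among partner transcription factors, Tcf3 and Tcf12, the E proteins that pair with Ptf1a or Bhlha15, were not called, with ratios of 0.728 (0.683 to 0.777) and 0.736 (0.672 to 0.806).

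Of 9 genes of granule traffic or linked to Bhlha15, 8 were measured, with 2 called higher and 0 lower. Among those linked to Bhlha15 are Gjb1, Rab26, Rab3d, Copz2 and Atp2c2, of which the 2 called were Gjb1, a gap junction gene (1.92, 1.09 to 3.47, on 21 and 36 counts), and Rab26, a granule GTPase (1.77, 1.24 to 2.56). Rab3d, a GTPase of secretory granules, had 3315 and 4017 counts (1.36, 1.30 to 1.43, not called), and Copz2, a coat protein of transport vesicles, had 1365 and 1503 (1.24, 1.15 to 1.33, not called). Atp2c2, a calcium pump, had 6 and 9 counts and was not measured. Rab26, Copz2 and Atp2c2 are named here after their values were seen. Snap23, a membrane fusion protein, had 639 and 479 (0.842, 0.746 to 0.949). Of 13 ER stress genes, which secretory cells use heavily, 3 were called higher and 0 lower. Dnajb9, an ER chaperone cofactor, had 1427 and 2896 counts (2.28, 2.14 to 2.43), close to the fold of Bhlha15, while Hsp90b1, another ER chaperone, had 13672 and 12407 (1.02, 0.994 to 1.04). Xbp1, the ER stress factor known to activate Bhlha15, had 6191 and 7816 counts (1.42, 1.37 to 1.47, not called). These genes are also active in endocrine cells, and their sources were not separated.

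The comparison of the RIP with control islets asks whether an RNA is over- or under-represented with IMP2 relative to islet RNA. It shares the control library with the comparison above. Here a call needed 2-fold. Of the 31 genes 22 were measured, with 1 called higher and 7 lower, while 17.1% of all 15968 measured were called higher and 24.0% lower, 41.1% in all. The median log2 ratio of the 22 was -0.45, beside -0.10 over all measured genes. The 28 enzyme and granule genes in sum had a ratio of 0.781 (0.746 to 0.818).

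Pnliprp1 (chromosome 19, 58728887 to 58744169, plus strand), a relative of pancreatic lipase, was the gene called higher, with 12.0 control and 28.4 RIP CPM (2.91-fold, 2.40 to 3.51). Its neighbour Pnliprp2 had 78 control counts and 0 in the RIP, 4.84-fold lower with 3 counts set in the RIP. Pnlip, on the same stretch of chromosome 19, had a ratio of 0.833 (0.699 to 0.986). Ctrl was lowest among genes with counts in both, with 384 and 5 (ratio 0.0700, 0.0226 to 0.165). Spink1 had 91 and 0 counts, 5.65-fold lower with 3 counts set in the RIP. Klk1 (0.136, 0.0162 to 0.508), Rnase1 (0.276, 0.162 to 0.443), Try5 (0.350, 0.235 to 0.503) and Cela3b (0.421, 0.321 to 0.545) were the others called lower. Of the goblet cell and enterocyte markers 8 were measured in this comparison, with 7 called lower and 0 higher. All 6 lymphocyte markers were called lower too. Of the 12 goblet cell and enterocyte markers 10 were at 0 in the RIP, while Zg16 had 442 control and 85 RIP counts (ratio 1.03, not called). The part of intestinal cells in the levels of Zg16 and Spink1 was not tested here either.

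The remaining 14 measured genes were not called. Bhlha15, at 33.7 and 45.3 CPM, had a ratio of 1.65 (1.44 to 1.89). Sycn (1.55, 1.12 to 2.11), Try4 (1.44, 1.22 to 1.69) and Cpb1 (1.40, 1.15 to 1.69) were also above 1 with intervals that excluded it. Zg16 (1.03), Cel (1.02) and Cpa1 (0.937) were near 1, and Ctrb1 (0.511, 0.441 to 0.590) and Cela1 (0.565, 0.463 to 0.684) were just inside the limit. Relative to the other 27 enzyme and granule genes, 14 of 18 intervals excluded 1, from 0.0873 for Ctrl to 3.97 for Pnliprp1, and 9 of the 18 lay within 1.5-fold. The share of all genes with such an interval was not computed here either.

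Few RNA molecules stood behind the RIP counts. Reads made from 1 molecule were roughly estimated from genes at 0 in both islet libraries and above 5 counts in the RIP or IgG library. The median was 18 counts in the RIP (230 genes) and 21 in the IgG library (121 genes). Genes with fewer counts were left out, which raises these medians and lowers the estimated molecules. On this scale the 171 counts of Pnliprp1 come to 10 molecules, the 206 of Ctrb1 to 11, the 273 of Bhlha15 to 15, and the 5 of Ctrl to 0. With RIP counts divided in this way, Pnliprp1 was the 1 gene called higher (3.06, 1.45 to 5.70) and 2 were called lower in place of 7. These were Ctrl, whose interval reached 0.933, and Ctrb1 (0.492, 0.245 to 0.881). The other 6 genes called lower on counts were not called on estimated molecules. Of all measured genes 9.04% were called higher and 6.21% lower on estimated molecules, in place of 17.1% and 24.0%. For Pnliprp2 the interval then reached 4.68, so its position relative to Pnlip and Pnliprp1 is not shown.

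The comparison of the RIP with the IgG library sets RNA recovered with the IMP2 antibody beside a library labelled IgG. Their tissue content differed, with the 9 endocrine genes at 26.6% and 0.113% of gene counts. Brown fat markers stood at 1559 and 23745 CPM. All 9 endocrine genes were called higher, with a median ratio of 150. The 28 enzyme and granule genes in sum had a ratio of 94.0 (65.6 to 140). Recovery by the antibody and a difference in tissue content cannot be told apart here. The most counts any of the 31 genes had in the IgG library were the 7 of Cela3b (0.530 CPM), and 17 had 0. A gene could therefore reach the 1 CPM minimum only through the RIP and then had to differ, so the count of 18 measured and 18 called higher is set by that filter. Over all 14822 measured genes 43.2% were called higher and 30.4% lower, 73.7% together. The same filter sets the members' median of 6.33 on the log2 scale, or 6.27 where genes at 0 take their bound, which is given as a description. Over all measured genes the median was 0.45.

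Cela3b had the smallest ratio of the 18, at 12.3 (5.61 to 31.7), and Ctrb1 stood at 93.5 (31.5 to 457) on 206 and 3 counts. Pnliprp1 stood at 58.2 (22.3 to 216) on 171 and 4. With 3 counts set in place of 0 IgG counts, Bhlha15 was 124-fold higher, Try4 87.6-fold, Cela2a 54.5-fold, Sycn 24.1-fold and Rnase1 8.17-fold. These are not interval limits, and the exact counting interval of Bhlha15 started at 100. On estimated molecules the lower interval limits of these ratios were far smaller, at 4.19 for Bhlha15, 2.93 for Try4, 1.68 for Cela2a, 0.482 for Sycn and 0.0299 for Rnase1. On that scale 14 of the 18 were called, without Try5, Cela3b, Rnase1 and Sycn, under the same filter. Of all measured genes 16.4% were called higher and 19.3% lower on estimated molecules. Scaling to equal counts of the 9 endocrine genes was an alternative chosen after the values were seen. With it 0 of the 18 were called higher, 1 was called lower, and the median log2 ratio was -0.87. Over all measured genes 0.081% were then called higher and 77.1% lower, with a median of -6.75. The 30 IgG counts of all members together limit what can be said of any of them.

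**Figure D4:**
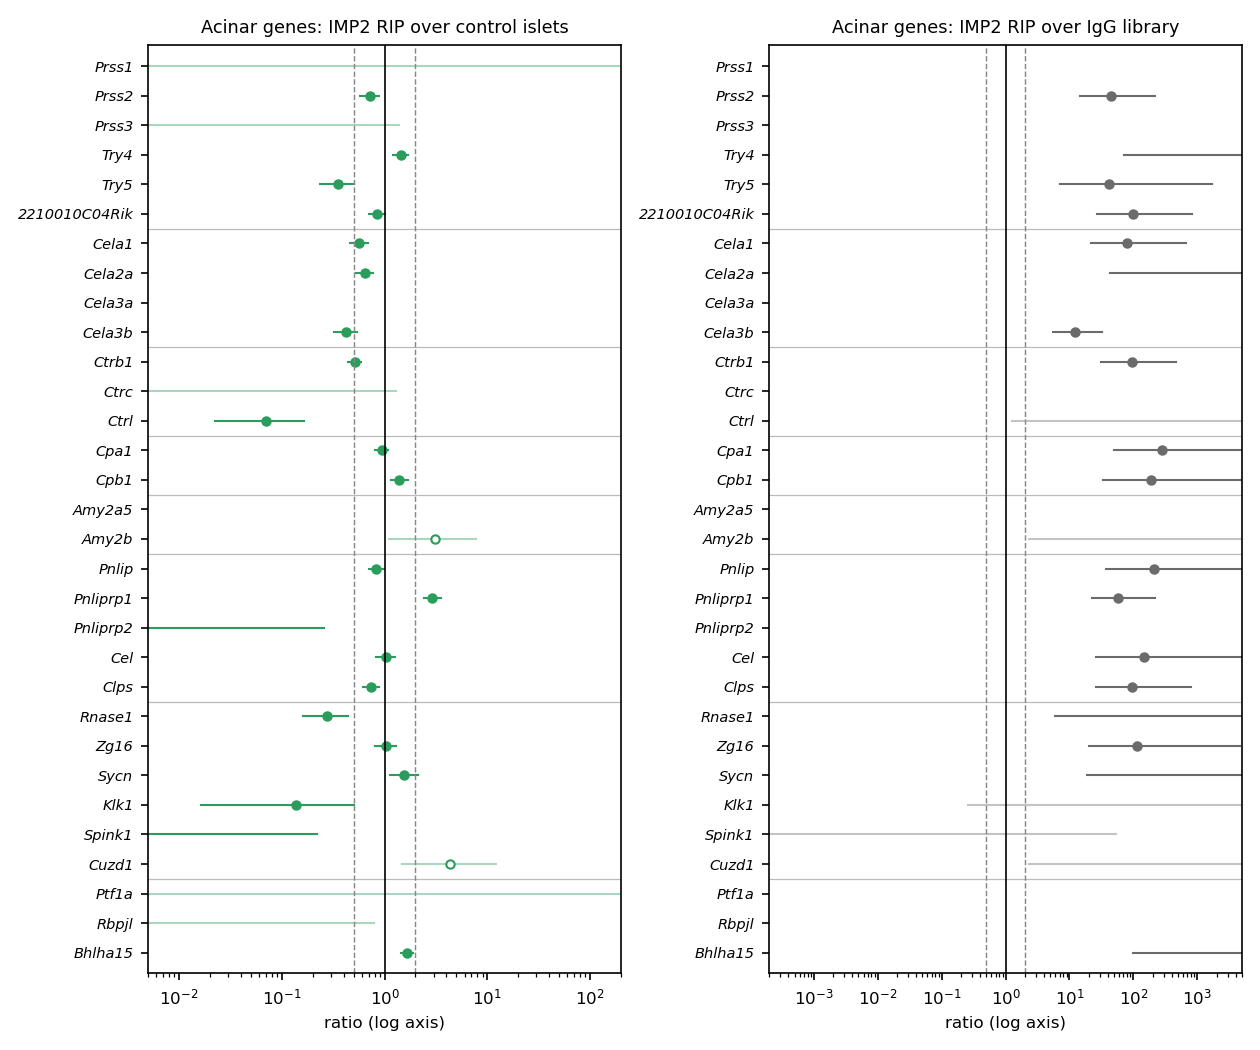
Ratio of the IMP2 RIP over control islets (left) and over the IgG library (right) for each acinar gene, on log axes, with 95% counting intervals cut at the plot's edges. Filled points are measured genes, open points are genes under a mean of 1 CPM, dashed lines mark 2-fold, and no point is drawn where a library had 0 counts. Pnliprp1 is the measured gene past the upper line on the left, and the measured genes on the right lie above their line.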

How the data were processed

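RNA from mouse islets was sequenced in 4 libraries, 1 in each group, and the groups came from the genotypes and titles in the labels. The deposited files hold raw whole-number counts of reads per gene, which the authors made with STAR and HTSeq on mm10, per the submitters' processing notes. Their versions, the annotation release and the strand setting are not given in the sources used here. Closing entries that name no gene, 5 in each file, held 50.8%, 50.3%, 72.4% and 70.5% of the total (control, labelled knockout, RIP, IgG) and stayed out of library sizes. Reads with several alignments fall among them, which lowers the counts of genes with near-identical copies.

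GENCODE M21 (GRCm38, the assembly of mm10) named 42548 of 43629 identifiers and gave exon lengths, each the union of exons over all transcripts of a gene. Each pair of libraries was scaled by TMM in edgeR 4.0.16 (R 4.3.3) over genes with a mean of at least 1 CPM. Ratios have exact Clopper-Pearson 95% intervals (SciPy 1.17.1), 0.5 counts were added for list medians, and 3 counts were set in place of 0 where said. The interval and call code was tested on simulated data. No replicate test was possible with 1 library per group. The members and gene lists were chosen with earlier results of these data known. All 31 members are described, and of each other list the 3 genes highest in mean CPM and those with the highest and lowest ratio of labelled knockout over control. Of these, the genes of the stroma, liver, brown fat and salivary lists are not named in the results, and some genes of the remaining lists are not reported here. Alternatives were library totals, totals without acinar and hormone genes and Gm42418, DESeq2 1.42.0 size factors, other minimums and fold limits, an assumed coefficient of variation of 0.2, no members with near-identical copies, 1 count added, and estimated molecules. Endocrine scaling and the omission of Bhlha15 or of Zg16 and Spink1 were added after the values were seen. Python 3.11.15, NumPy 2.4.6, pandas 2.3.3 and Matplotlib 3.10.9 were used.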

Additional observations from a re-analysis of the deposited data

How the results depend on the processing

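No paired analysis was possible because each group has 1 library. The number of members called in the labelled knockout over control, 4 higher and 4 lower, was 2 and 2 at a 2-fold limit, and 2 lower without Zg16 and Spink1. Over all measured genes 1.25% were called higher and 8.75% lower at the 2-fold limit. For the RIP over control, the 1 gene called higher became 3 with no expression minimum and 0 at a 4-fold limit. The share of all measured genes called higher was 12.2% and 9.05% under these settings, beside 17.1%. The 7 called lower became 4 at a minimum of 5 CPM, 4 at a 4-fold limit and 2 on estimated molecules. The share of all measured genes called lower was 17.9%, 14.2% and 6.21% under these settings, beside 24.0%. For the RIP over IgG, the median log2 ratio of 6.33 was 4.22 on estimated molecules and -0.87 under endocrine scaling. Endocrine scaling also gave 0 higher and 1 lower in place of 18 and 0, with 0.081% of all measured genes called higher and 77.1% lower. Under that scaling the RIP over IgG ratio fell below 1 for Ctrb1 (0.638), Cela1 (0.543), Clps (0.655), Zg16 (0.789) and Pnliprp1 (0.397), and the median over all measured genes was -6.75 in place of 0.45. In the labelled knockout over control, endocrine scaling gave a median of -0.09 in place of 0.09, beside -0.18 in place of 0.00 over all measured genes. It called 3 members higher (without Cel, 1.33) and 6 lower (Cpa1 among them, 0.641), and of all measured genes 2.77% higher and 21.3% lower. Ctrb1 was called lower in the RIP over control under library totals (0.416), under totals without members and hormone genes (0.478) and on estimated molecules (0.492), and Cela1 under library totals (0.460), which moved the median of all genes from -0.10 to -0.40. The cause of these differences was not tested. Of the values for single genes, 398 kept their direction and call, beside 15 weaker, 5 stronger and 5 reversed. Several alternatives could not change them. Expression minimums and the omission of members only add or drop genes, and 1 count added enters list medians alone. The 398 are therefore no measure of stability. Depth limits genes under about 100 counts in the islet libraries and nearly all genes in the RIP and IgG libraries.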
